A study of Homo sapiens with 480 samples.

Results

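The 10 genes described here are the mesenchymal transcription factors SNAI1, SNAI2, TWIST1, TWIST2, ZEB1, ZEB2, PRRX1 and TCF4 and the mesenchymal cadherins CDH2 and CDH11. They were taken by name from the 27021 genes of 5 deposited tables of single-cell RNA, and all 10 were listed in every table. The tables follow BJ fibroblasts, a human skin fibroblast line, while they are turned toward pluripotency by OCT4, SOX2, KLF4 and MYC. The groups are cells at day 2, day 8 and day 16 after induction of the 4 virally delivered factors, with untreated BJ fibroblasts as the starting point. Day 16 cells are given as a TRA-1-60-positive and a TRA-1-60-negative fraction, TRA-1-60 being a surface antigen of pluripotent cells. The question put to the 10 genes is which of them were lower, persisted or were high again in each group.

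Fibroblasts are mesenchymal cells, and reprogramming passes through a mesenchymal-to-epithelial transition in which cells gain E-cadherin junctions. Snail, Twist and ZEB proteins bind E-box sequences and repress epithelial genes such as CDH1, the gene for E-cadherin. ZEB1 and ZEB2 are in turn held down by microRNAs of the miR-200 family in epithelial cells. Exchange of E-cadherin for N-cadherin (CDH2) is a usual mark of the opposite transition.

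Each of the 480 deposited libraries, 96 per group, is 1 cell captured on a microfluidic chip, and 460 were kept (92 BJ, 96 day 2, 92 day 8, 95 TRA-1-60-positive and 85 TRA-1-60-negative cells). The labels do not tie cells to separate cultures, infections or chips. Each group was therefore treated as a single sample, no test between groups is given, and intervals cover counting error within a group only. Median genes detected per cell were 5678 to 5915, but 32 positive cells had under 4000 genes, against 3 negative cells and 4 to 15 in the other groups. The files give FPKM and no counts, so depth is unknown. Whether the 5 tables were normalised together is not given in the sources used here. RPL21, a ribosomal protein gene, averaged 1225 rescaled FPKM at day 2 and 992 in negative cells. Its means were 4.44 in BJ cells, 5.90 at day 8 and 2.49 in positive cells. Comparisons of negative with day 8, BJ or positive cells cross this difference, and so do those of day 2 with BJ or day 8 cells. The part of this difference in the results was not tested. TUBB was listed at 0 in all kept cells of 4 groups. A value of 0 is therefore given only as listed. All 7 fibroblast markers averaged 1 or more in BJ cells, and the summed pluripotent markers had a median of 1832 rescaled FPKM in positive cells, against 33.7 in negative cells.

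The E-box that Snail and ZEB proteins prefer reads CAGGTG, or CACCTG on the other strand. RefSeq promoter windows on GRCh38.p14, 250 bases before to 50 after a start site, were matched for 6 of the 10 genes (22 windows) and for 11 of 23 epithelial genes known as targets of these repressors (15 windows). CAGGTG on either strand stood in 2 of the 22 windows (9.09%), both of ZEB1, and in 11 of the 15 epithelial windows (73.3%), against 7231 of all 35116 windows (20.6%). TCF4 gave 10 of the 22 windows and ZEB1 gave 7, so the 9.09% rests mainly on these genes. The paired windows of OCLN and of MUC1 overlap, and the epithelial genes were listed for their known repression. These shares are therefore a description and show no bound site. Below are the first CDH2 window, which holds no CAGGTG, the ZEB1 window with most, and the windows of CLDN7 (a claudin of tight junctions) and CRB3 (a cell polarity protein), which hold most among the epithelial genes. Capitals mark the motif on either strand. The CDH2 window is chr18:28177081-28177380 (minus strand), the ZEB1 window chr10:31318966-31319265 (plus), the CLDN7 window chr17:7262429-7262728 (minus) and the CRB3 window chr19:6464021-6464320 (plus).
CDH2: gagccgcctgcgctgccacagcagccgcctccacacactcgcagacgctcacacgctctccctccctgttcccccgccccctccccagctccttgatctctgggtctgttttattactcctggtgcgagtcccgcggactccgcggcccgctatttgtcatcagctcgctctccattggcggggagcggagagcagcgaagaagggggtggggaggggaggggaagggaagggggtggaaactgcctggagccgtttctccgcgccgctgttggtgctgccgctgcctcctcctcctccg
ZEB1: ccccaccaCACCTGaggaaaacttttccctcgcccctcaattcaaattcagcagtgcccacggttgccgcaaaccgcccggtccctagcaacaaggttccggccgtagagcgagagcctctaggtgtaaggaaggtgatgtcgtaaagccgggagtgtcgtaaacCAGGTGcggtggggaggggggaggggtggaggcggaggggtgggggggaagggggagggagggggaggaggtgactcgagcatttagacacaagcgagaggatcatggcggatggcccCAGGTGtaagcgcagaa
CLDN7: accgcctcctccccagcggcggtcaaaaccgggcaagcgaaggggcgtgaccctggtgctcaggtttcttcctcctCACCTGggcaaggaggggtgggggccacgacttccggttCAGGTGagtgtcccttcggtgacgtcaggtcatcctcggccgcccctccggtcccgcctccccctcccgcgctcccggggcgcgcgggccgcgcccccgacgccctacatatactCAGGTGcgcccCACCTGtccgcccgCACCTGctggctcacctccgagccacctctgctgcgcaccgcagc
CRB3: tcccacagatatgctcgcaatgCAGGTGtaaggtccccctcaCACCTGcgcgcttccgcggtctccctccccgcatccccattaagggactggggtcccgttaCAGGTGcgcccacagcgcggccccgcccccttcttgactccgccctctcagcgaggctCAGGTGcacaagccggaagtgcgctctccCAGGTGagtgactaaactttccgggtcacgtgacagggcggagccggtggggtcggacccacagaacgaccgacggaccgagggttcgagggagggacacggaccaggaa
The ZEB1 window has the motif 242 and 85 bases before and 34 bases after the start site. The CLDN7 window has it 174, 135, 20 and 9 bases before and 6 after, and the CRB3 window 228, 208, 147, 89 and 60 bases before. CLDN7 averaged 27 rescaled FPKM in positive cells and 2.94 in negative cells. CRB3 averaged 13.8 rescaled FPKM in positive cells and was listed at 0 in every negative cell. CDH2, with no such motif in that window, was also higher in positive than in negative cells, as described below. ZEB1, with the motif, was lower there. The part of the motif in these levels was not tested.

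Levels are FPKM rescaled to a sum of 1000000 in each cell, which allows comparison between genes per length. A gene counts as detected in a cell at a value of 1 or more. Differences are log2 ratios of group means with 1 added to each, and a gene is called at a ratio of 2-fold or more. Among the 10 genes, the highest mean was that of CDH2 in BJ cells (128 rescaled FPKM), day 2 cells (85.6) and positive cells (88.7), that of TWIST2 at day 8 (72.6) and that of CDH11 in negative cells (267). ZEB2 had the lowest mean in BJ, day 2 and day 8 cells, and SNAI1 in both day 16 fractions.

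**Figure D1:**
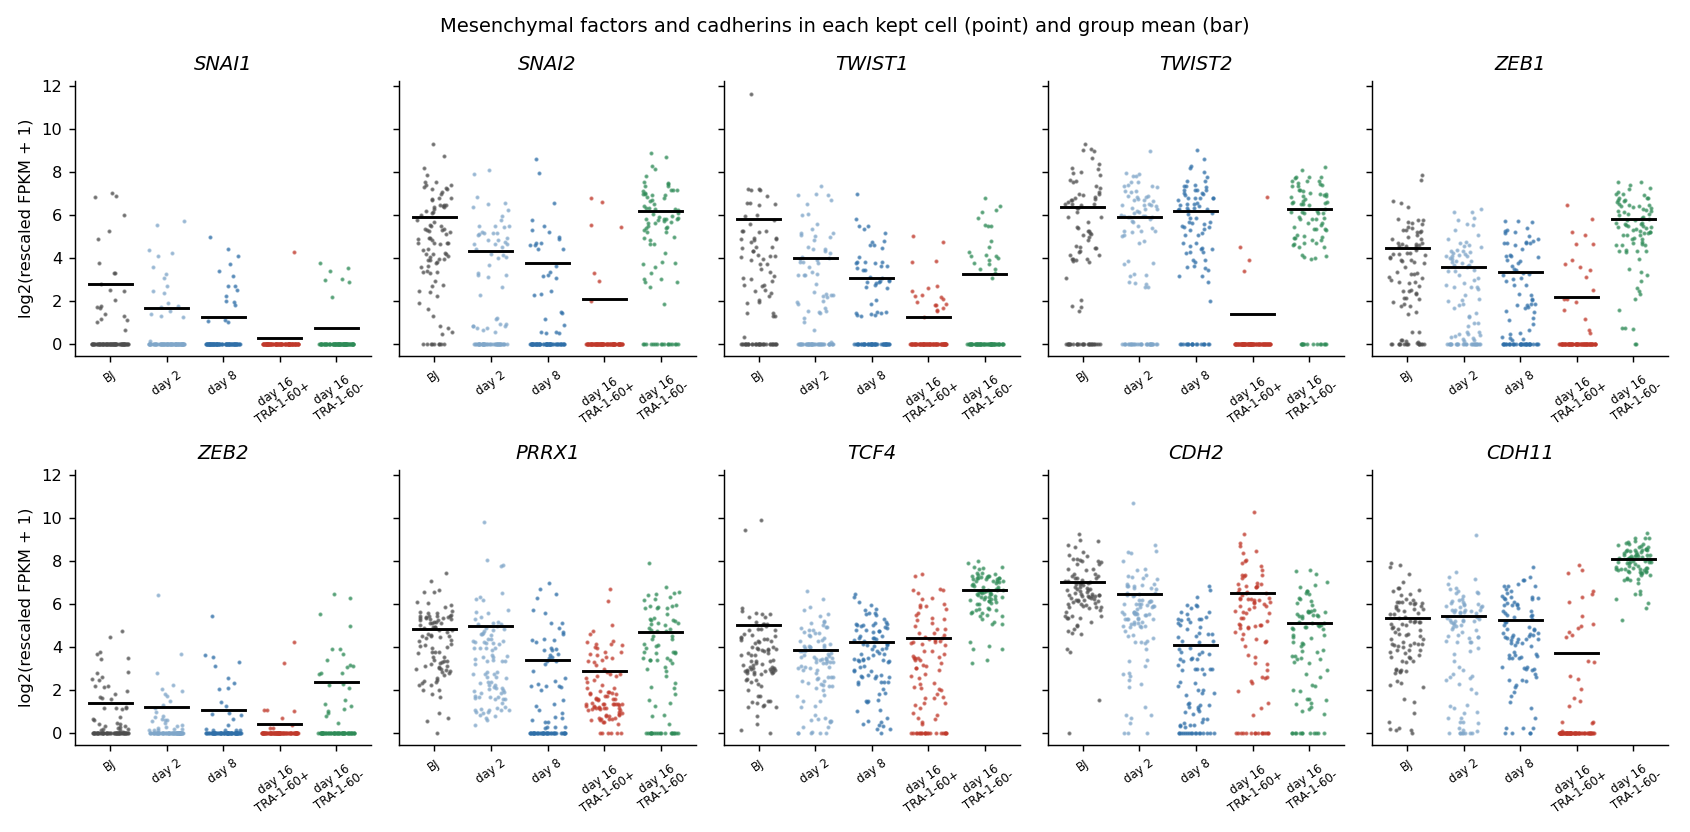
Level of each of the 10 genes in each of the 460 kept cells (points, log2 of rescaled FPKM + 1) by group, with the group mean drawn as a bar on the same scale. CDH11 and TCF4 had no negative cell at 0, and TWIST2 was above the detection limit in 4 of 95 positive cells.

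The Snail factors were both lower early and parted at day 16. SNAI1 encodes Snail, a zinc-finger repressor that acts at the start of epithelial-to-mesenchymal transition. SNAI1 was low throughout: its median was listed at 0 in every group, and its highest cell reached 130.1 rescaled FPKM in BJ, 52 at day 2, 30.02 at day 8, 18.1 in positive and 12.4 in negative cells. It was detected in 21 of 92 BJ cells, 18 of 96 day 2 cells, 16 of 92 day 8 cells, 1 of 95 positive cells and 7 of 85 negative cells. The share in positive cells was 1.05% (95% interval 0.0266% to 5.73%), against 22.8% (14.7% to 32.8%) in BJ cells. The log2 ratios of SNAI1 to BJ cells, -1.16 at day 2, -1.56 at day 8, -2.56 in positive and -2.08 in negative cells, were all within 2-fold as differences of mean log2 values (-0.20, -0.28, -0.70 and -0.49). SNAI1 was the one gene of the 10 whose mean in negative cells (0.663 rescaled FPKM) was below its day 8 mean (1.38).

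SNAI2 encodes Slug, a close relative of Snail that is abundant in fibroblasts. SNAI2 ran from 0 to 642 rescaled FPKM in BJ cells with a median of 25.2, and from 0 to 274 at day 2 with a median of 0.604. At day 8 it ran from 0 to 389 and in positive cells from 0 to 109, both with a median listed at 0. In negative cells it ran from 0 to 469 with a median of 48.6. The ranges overlapped in all groups, and the number of cells that held the gene differed widely. SNAI2 was detected in 85.9% of BJ cells (95% interval 77% to 92.3%), 42.7% at day 2 (32.7% to 53.2%) and 28.3% at day 8 (19.4% to 38.6%). The share was 7.37% in positive cells (3.01% to 14.6%) and 80% in negative cells (69.9% to 87.9%). The SNAI2 mean was 71.2 rescaled FPKM in negative cells, against 12.6 at day 8 and 60.0 in BJ cells, which gives log2 ratios of 2.40 and 0.24.

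The Twist pair diverged. TWIST1 and TWIST2 encode related basic helix-loop-helix factors of mesenchyme. TWIST1 had a median of 5.08 rescaled FPKM in BJ cells, 1.72 at day 2, and 0 at day 8 and in both day 16 fractions. It was detected in 62% of BJ cells, 53.1% at day 2, 46.7% at day 8, 20.0% of positive and 25.9% of negative cells. The TWIST1 mean of BJ cells, 55.9 rescaled FPKM, rested on 1 cell at 3228, which held 62.7% of the sum. Without that cell the BJ mean was 21.1. In negative cells TWIST1 averaged 8.65 rescaled FPKM, with a log2 ratio of -2.56 to BJ cells and of -1.39 when the highest cell of each group was left out. TWIST1 was thus not back at its starting level in negative cells, by share of cells or by mean.

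TWIST2 stayed within 2-fold of BJ cells to day 8 and was detected in few positive cells. Its median was 22.2 rescaled FPKM in BJ cells (0 to 628), 36.4 at day 2 (0 to 506), 43 at day 8 (0 to 514), 0 in positive cells (0 to 112) and 55.9 in negative cells (0 to 297). The ranges of BJ, day 2, day 8 and negative cells overlapped, and few positive cells were above 0. TWIST2 was detected in 4 of 95 positive cells, 4.21% (95% interval 1.16% to 10.4%), against 79.3% at day 8 (69.6% to 87.1%) and 83.5% of negative cells (73.9% to 90.7%). The log2 ratio was -4.98 in positive against BJ cells, the largest difference of any of the 10 genes in the 8 comparisons made. One positive cell held 71.4% of the TWIST2 sum of that fraction, and without it the mean there was 0.479 rather than 1.66 rescaled FPKM.

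The ZEB pair was highest in negative cells. ZEB1 and ZEB2 encode large zinc-finger and homeodomain proteins that repress CDH1. ZEB1 had a median of 9.05 rescaled FPKM in BJ cells (0 to 231), 3.52 at day 2 (0 to 75.6), 2.05 at day 8 (0 to 52.5), 0 in positive cells (0 to 88) and 43.3 in negative cells (0 to 186). The median negative cell stood above most cells of each other group, although the ranges overlapped. ZEB1 was detected in 94.1% of negative cells (95% interval 86.8% to 98.1%) and 17.9% of positive cells (10.8% to 27.1%), against 54.3% at day 8 and 76.1% of BJ cells. Its mean in negative cells, 55.4 rescaled FPKM, exceeded the BJ mean of 21.3 (log2 ratio 1.34) and the day 8 mean of 9.02 (log2 ratio 2.49).

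ZEB2 was sparse, with a median listed at 0 in every group and means of 1.61 rescaled FPKM for BJ, 1.31 for day 2, 1.10 for day 8, 0.322 for positive and 4.08 for negative cells. Without the highest cell of the group these means were 0.443 for day 2, 0.657 for day 8 and 0.136 for positive cells, so single cells carried them. ZEB2 was detected in 24 BJ cells, 11 day 2 cells, 11 day 8 cells, 5 positive cells and 22 negative cells. The share in negative cells, 25.9%, was close to that of BJ cells, 26.1%, and all 22 of those negative cells also held ZEB1. No positive cell held both ZEB genes, which allows a share of up to 3.16% (3 counts of the cells, the limit used here for every count of 0). The ZEB2 difference between negative and day 8 cells (log2 ratio 1.27) was below 2-fold on the FPKM as deposited (0.98) and as a difference of mean log2 values (0.45). About 0.891% of the 50-base words of the longest ZEB2 coding transcript recur in the pseudogene ZEB2P1. The precursor genes of the miR-200 family were listed at 0 in every kept cell, in an assay that primes on polyadenylated RNA.

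PRRX1, a homeobox factor of limb and fibroblast mesenchyme, was below detection in many day 8 cells and high again in negative cells. Its median was 20.5 rescaled FPKM in BJ cells (0 to 173), 8.94 at day 2 (0.263 to 900.1), 0.201 at day 8 (0 to 125), 1.97 in positive cells (0 to 102.8) and 12.2 in negative cells (0 to 240.5). It was detected in 95.7% of BJ cells, 91.7% at day 2, 42.4% at day 8 (95% interval 32.1% to 53.1%), 75.8% of positive cells and 72.9% of negative cells (62.2% to 82%). The share in positive cells followed the number of genes in a cell. All 32 positive cells with under 4000 genes held PRRX1, at a mean of 16.1 rescaled FPKM, while the 63 cells with more averaged 1.39. Across the 95 positive cells PRRX1 correlated at 0.80 (Pearson, log2 scale) with the mean of 15 other genes, chosen after values were seen as those detected in at least 80% of BJ, day 2 and positive cells and at most 25% of day 8 and negative cells. It correlated at -0.79 with the number of detected genes. Its correlation with the 15 genes was 0.50 at day 2, 0.37 at day 8, 0.23 in BJ cells and -0.07 in negative cells. Comparisons of day 8 or negative cells with the other 3 groups cross the difference by which the 15 genes were chosen. The part of these genes and of the number of detected genes in the PRRX1 values was not tested. With each cell scaled on housekeeping genes, the log2 ratio of positive against BJ cells was -0.81, against -1.93 on the scale used here, and in cells with at least 4000 genes it was -3.44. The day 8 against BJ ratio of -1.41 was -0.68 over all 96 cells a group. At day 2 a single cell held 30.6% of the PRRX1 sum, and the day 2 mean of 30.7 rescaled FPKM was 14.2 in cells with at least 4000 genes.

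TCF4 encodes the E protein E2-2, a partner of Twist-type factors, and is not the Wnt effector gene TCF7L2. TCF4 had a median of 9.19 rescaled FPKM in BJ cells (0 to 956), 8.94 at day 2 (0 to 95), 11.7 at day 8 (0 to 85.3), 7.62 in positive cells (0 to 167) and 92.6 in negative cells (8.41 to 257). It persisted in most cells of every group, with detection in 95.7%, 84.4% and 89.1% of BJ, day 2 and day 8 cells, 71.6% of positive cells and 100% of negative cells (95% interval 95.8% to 100%). The negative cells stood apart at a mean of 99.1 rescaled FPKM, against 17.5 at day 8 and 31.5 in BJ cells. The BJ mean rested on few cells, since 1 cell held 33% of the sum and the 84 BJ cells with at least 4000 genes averaged 14. The log2 ratio of negative against BJ cells was 1.62. It was 2.75 in cells with at least 4000 genes and -0.31 on the FPKM as deposited, where cells with large totals weigh more.

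N-cadherin took a course of its own. CDH2 joins mesenchymal and neural cells and is also present in human pluripotent stem cells. CDH2 had a median of 85.6 rescaled FPKM in BJ cells (0 to 614), 45.7 at day 2 (0 to 1630.2), 6.68 at day 8 (0 to 113), 45.9 in positive cells (0 to 1221) and 19.9 in negative cells (0 to 189). By mean and median, its lowest level was at day 8, and positive cells were above negative cells. The ranges overlapped in all groups. Detection was in 98.9% of BJ cells, 92.7% at day 2, 69.6% at day 8 (95% interval 59.1% to 78.7%), 83.2% of positive cells (74.1% to 90.1%) and 83.5% of negative cells (73.9% to 90.7%). The log2 ratio was -2.95 for day 8 against BJ cells, 2.43 for positive against day 8 cells, 1.05 for negative against day 8 cells and 1.39 for positive against negative cells. Of the positive cells with at least 4000 genes, 98.4% held CDH2, against 53.1% of the 32 with fewer. The negative against day 8 ratio was under 2-fold on the FPKM as deposited (0.77), over all 96 cells a group (0.93) and in cells with at least 4000 genes (0.96). The positive against negative difference was 0.93 as a difference of mean log2 values.

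CDH11, the cadherin of osteoblasts and connective-tissue fibroblasts, stayed within 2-fold of BJ cells to day 8 and then split between the fractions. Its median was 22.9 rescaled FPKM in BJ cells (0 to 238), 29.4 at day 2 (0 to 596), 21.1 at day 8 (0 to 212), 0 in positive cells (0 to 219.9) and 255 in negative cells (37.4 to 621). The median negative cell was above the highest BJ, day 8 and positive cells, and the lowest negative cell was above the median of all other groups. CDH11 was detected in 22 of 95 positive cells, 23.2% (95% interval 15.1% to 32.9%), and in all 85 negative cells. The log2 ratio was 2.80 for negative against day 8 cells, 2.74 for negative against BJ cells and -4.36 for positive against negative cells. Of the bone and cartilage markers, SP7 was listed at 0 in every negative cell. The summed list of 5 such markers ranged from 0 to 90.8 rescaled FPKM in negative cells and from 0 to 64.6 in BJ cells, and its part in the CDH11 values was not tested. About 3.08% of the 50-base words of the longest CDH11 coding transcript recur in the gene AC010533.1.

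Read by comparison, the 10 genes moved as follows. At day 2, 4 of 10 were at least 2-fold lower than in BJ cells (SNAI1, SNAI2, TWIST1 and TCF4) and 0 were higher. Of all 12480 measured genes, 12.1% were called lower and 12.2% higher. The median log2 ratio of the 10 genes was -0.73, against -0.02 for all genes. Of the 4, SNAI2 stood at -1.62 and at -1.67 without the highest cell of each group, whereas TWIST1 was at -0.62 and TCF4 at -0.71 without it, and TCF4 was at -0.21 in cells with at least 4000 genes. CDH2, uncalled at -0.57, was at -1.22 as a difference of mean log2 values. At day 8, 6 of 10 were called lower than in BJ cells (SNAI1, SNAI2, TWIST1, ZEB1, PRRX1 and CDH2) and 0 higher. Of all genes, 15% were called lower and 15.2% higher. The median of the 10 genes was -1.28, against 0.04 for all genes. TWIST2 (-0.18), ZEB2 (-0.31), TCF4 (-0.81) and CDH11 (-0.07) were not called at day 8.

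A comparison of day 8 with day 2 cells and one of positive with day 8 cells were added after values had been seen. Day 8 cells had 2 of the 10 genes at least 2-fold lower than day 2 cells, PRRX1 (-1.59) and CDH2 (-2.38), where 12.5% of all genes were called lower. In cells with at least 4000 genes the PRRX1 call did not hold (-0.50), and TWIST1 was called lower (-1.08). Positive cells had 5 genes lower than day 8 cells (SNAI2, TWIST1, TWIST2, ZEB1 and CDH11), where 11.6% of all genes were called lower, and CDH2 higher, where 30.3% were called higher. SNAI2 was at -0.88 there as a difference of mean log2 values, and ZEB1 at -0.91 in cells with at least 4000 genes, both under 2-fold. SNAI1 was just short of 2-fold there. PRRX1 was at -0.52, at -2.17 in cells with at least 4000 genes, where it was called lower, and at 0.63 on the FPKM as deposited.

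Positive cells had 7 of 10 genes at least 2-fold lower than BJ cells, where 13.6% of all genes were called lower, and the exceptions were ZEB2 (-0.98), TCF4 (-0.60) and CDH2 (-0.52). These 3 depended on the setting. ZEB2 stayed uncalled in 7 of 11 settings and was at -2.02 with a pseudocount of 0.1, and CDH2 was at -1.73 as a difference of mean log2 values. TCF4 was at -2.30 on the FPKM as deposited and at 0.56 in cells with at least 4000 genes. The median of the 10 genes was -2.12, against 0.55 for all genes. Negative cells had 7 of 10 genes at least 2-fold higher than day 8 cells, where 28.4% of all genes were called higher, and 0 lower, where 10.6% were called lower. The exceptions were SNAI1 (-0.52), TWIST1 (0.19) and TWIST2 (0.08), and the median of the 10 was 1.29, against 0.49 for all genes. This comparison shares the day 8 cells with that of day 8 against BJ cells. The summed fibroblast markers moved alongside, with a median of 6809 rescaled FPKM in negative cells, against 456 at day 8 and 2677 in BJ cells, and their part in the result was not tested. Against BJ cells, the negative cells had 3 genes higher (ZEB1, TCF4 and CDH11), where 31.4% of all genes were called higher. They had 3 lower (SNAI1, TWIST1 and CDH2), where 13% were called lower, and the remaining SNAI2 (0.24), TWIST2 (-0.11), ZEB2 (0.96) and PRRX1 (-0.10) were within 2-fold. ZEB2 reached 1.29 with a pseudocount of 0.1, and TWIST2 1.02 as a difference of mean log2 values. Positive against negative cells, 8 of the 9 genes that were measured (all but SNAI1) were lower, where 21.4% of all genes were called lower. CDH2 was the 1 gene higher, where 24.8% were called higher. The TWIST1 and ZEB2 calls of this comparison were under 2-fold as differences of mean log2 values (-0.71 and -0.70), and that of PRRX1 on the FPKM as deposited (-0.41) and when scaled on housekeeping genes (-0.80).

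**Figure D2:**
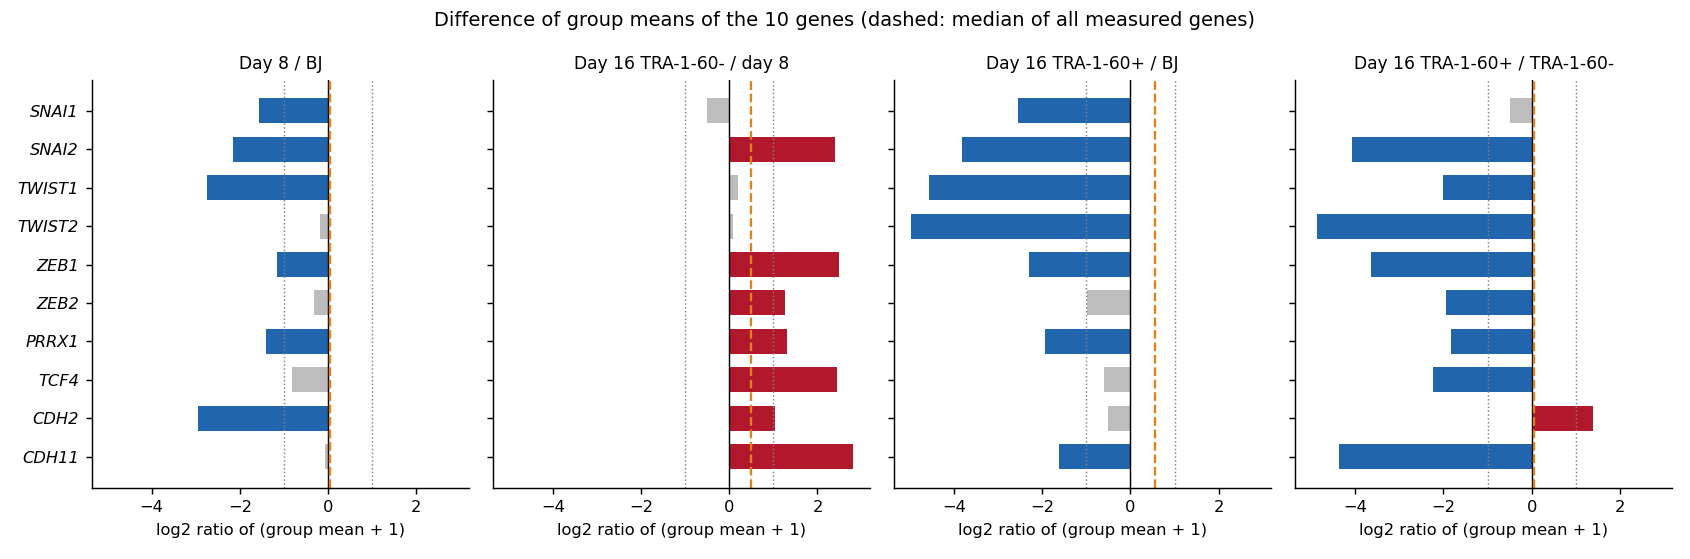
Log2 ratio of group means (1 added to each) for the 10 genes in 4 of the 8 comparisons, each named as numerator over denominator in its panel title, with blue and red for genes at least 2-fold lower and higher, grey for the rest, dotted lines at 2-fold and a dashed line at the median of all measured genes. Positive cells had 8 genes lower than negative cells and CDH2 higher.

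The number of the 10 genes held by a cell followed the same course. BJ cells held 7.25 of the 10 genes on average, day 2 cells 6.02, day 8 cells 5.30, positive cells 3.09 and negative cells 6.74. A total of 69 of 92 BJ cells, 41 of 96 day 2 cells and 25 of 92 day 8 cells held at least 7. At day 16 this was so for 1 of 95 positive cells and 54 of 85 negative cells. In cells with at least 4000 genes the means were 7.45, 6.44 and 5.43 in BJ, day 2 and day 8 cells, 3.40 in positive and 6.77 in negative cells. Of SNAI2, ZEB1, ZEB2 and PRRX1, the day 8 cells held none in 27 cases and all 4 in 5, while BJ cells held none in 0 cases and all 4 in 17. Positive cells held none in 16 cases, fewer than at day 8, and all 4 in 0. Negative cells held none in 1 case and all 4 in 17. The lower count of positive cells with none rested on PRRX1, whose share there followed the number of genes in a cell. PRRX1 was detected in 72 of 95 positive cells and 39 of 92 day 8 cells. SNAI2 was detected in 7 positive and 26 day 8 cells, ZEB1 in 17 and 50, and ZEB2 in 5 and 11.

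**Figure D3:**
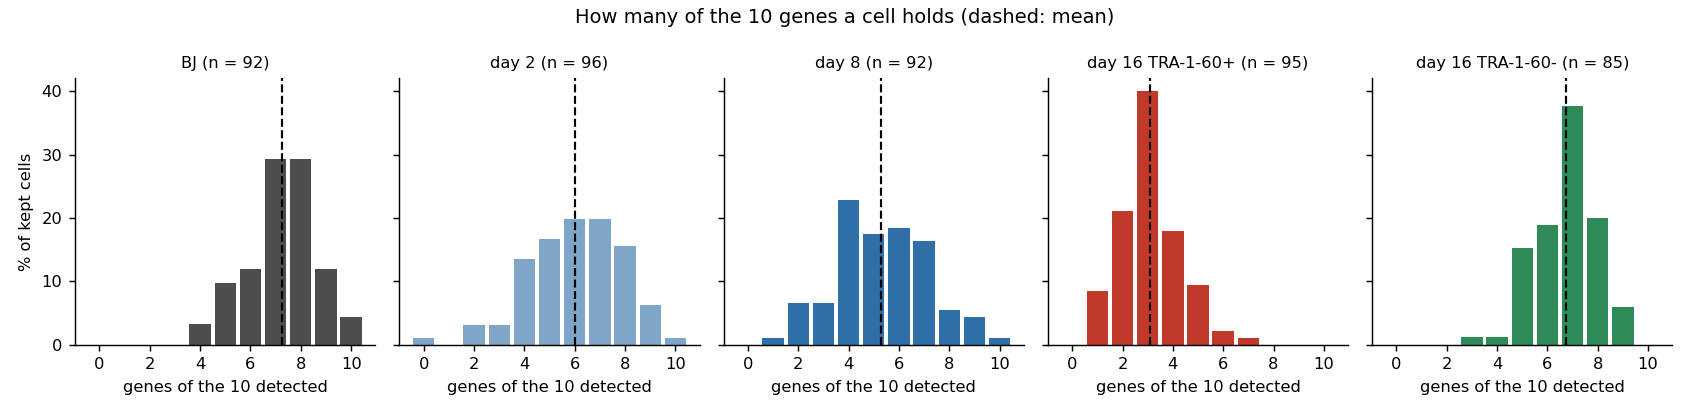
Share of kept cells (%) that held 0 to 10 of the 10 genes at 1 rescaled FPKM or more, by group, with the mean as a dashed line. Positive cells centred on 3.09 genes and negative cells on 6.74, against 7.25 in BJ cells.

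Pairs of genes within a group were weakly related. At day 8 the highest Pearson correlations of log2 levels over 92 cells were ZEB2 with PRRX1 (0.46), SNAI2 with PRRX1 (0.42) and SNAI2 with ZEB1 (0.37). In 95 positive cells the largest in size were PRRX1 with CDH2 (-0.44) and ZEB1 with CDH11 (0.41), and in 85 negative cells ZEB1 with PRRX1 (0.39). In those positive cells PRRX1 correlated at -0.79 and CDH2 at 0.46 with the number of detected genes. The part of that number in the value of -0.44 was not tested. In BJ cells the largest in size was SNAI1 with TWIST2 (-0.30). Cells of a group share a table and differ in depth, and these values describe the cells measured.

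E-cadherin and N-cadherin were found together in positive cells. CDH1 was detected in 1 of 92 BJ cells and 0 of 96 day 2 cells, in 12 of 92 day 8 cells and 63 of 95 positive cells. It was listed at 0 in all 85 negative cells, which allows a share of up to 3.53% for counting error alone. As with TUBB, that 0 is given only as listed. The CDH1 mean was 37.6 rescaled FPKM in positive cells, with a median of 9.47 and a highest cell at 792, and 3.50 at day 8. Both cadherins were held by 8 of 92 day 8 cells, 8.70% (95% interval 3.83% to 16.4%), and by 59 of 95 positive cells, 62.1% (51.6% to 71.9%). Of the 63 positive cells with CDH1, 93.7% held CDH2. With at least 4000 genes the share of positive cells with both was 79.4%, and without the 5% of cells with most genes, where doublets would be looked for first, it was 60.0%. CDH2 was also held with NANOG, a pluripotency factor, in 70 of 95 positive cells (73.7%, 63.6% to 82.2%), whereas CDH11 and NANOG were together in 15 (15.8%, 9.12% to 24.7%). Alone, NANOG was detected in 80 of these cells, CDH2 in 79 and CDH11 in 22, so the joint counts largely follow the single ones. NANOG was held by 88.6% of the cells with CDH2 and 68.2% of those with CDH11. Of the neural markers, among which CDH2 is often counted, the summed list of 7 had a median of 42.2 rescaled FPKM in positive cells (0 to 556) and 151 in negative cells (3.03 to 809), and its part in the CDH2 values was not tested.

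**Figure D4:**
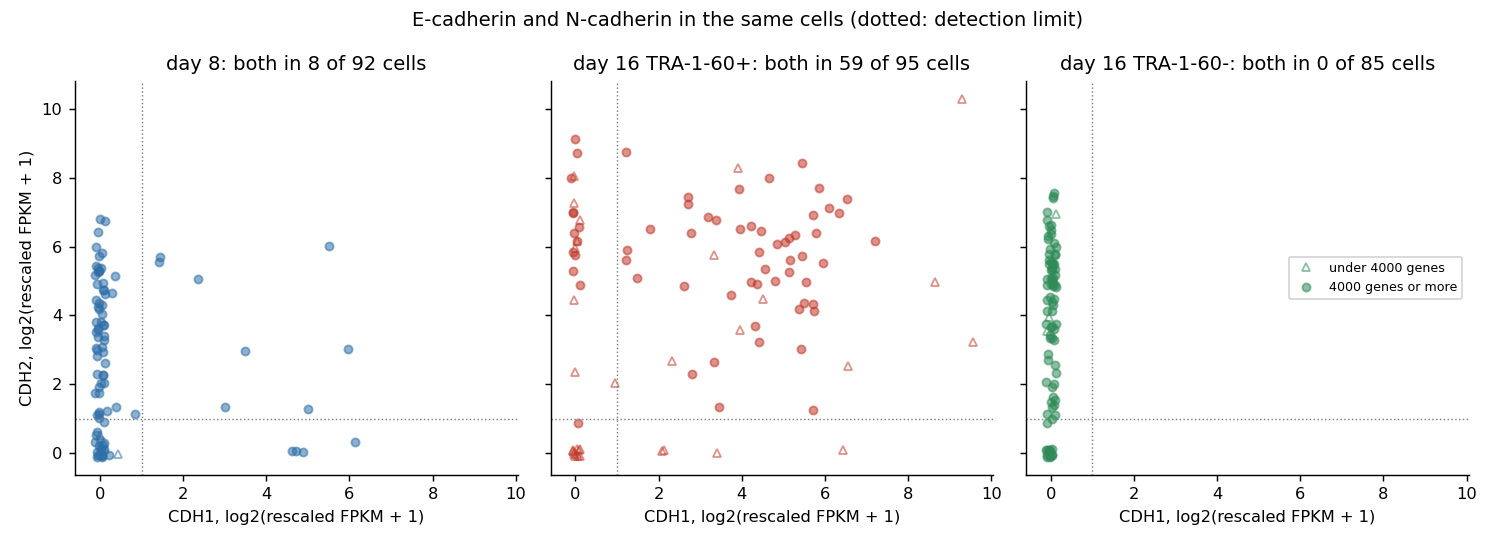
CDH2 against CDH1 (log2 of rescaled FPKM + 1, with a small random offset) in each day 8 cell, positive cell and negative cell, with triangles for cells under 4000 genes and dotted lines at the detection limit. Both genes were above the limit in 59 of 95 positive cells, 8 of 92 day 8 cells and 0 of 85 negative cells.

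Within day 8, some factors were rarely detected in the 12 cells with CDH1 and others in most of them. SNAI2, ZEB1 and ZEB2 were each detected in 0 of these 12 cells, which allows a share of up to 25%. In the 80 day 8 cells without CDH1, SNAI2 was detected in 26 (32.5%, 95% interval 22.4% to 43.9%), ZEB1 in 50 (62.5%, 51% to 73.1%) and ZEB2 in 11 (13.8%, 7.07% to 23.3%). The median number of detected genes was 5532.5 in cells with CDH1 and 5942.5 in cells without, and its part in these shares was not tested. TWIST1 was detected in 1 of the 12 cells with CDH1 (8.33%, 0.211% to 38.5%) and 42 of the 80 without (52.5%, 41.02% to 63.8%), and PRRX1 in 2 and 37. TCF4 was detected in 10 of the 12 cells with CDH1 and 72 of the 80 without, CDH11 in 10 and 74, CDH2 in 8 and 56, and TWIST2 in 8 and 65. In positive cells ZEB1 was detected in 10 of 63 cells with CDH1 and 7 of 32 without, SNAI2 in 7 and 0, and TWIST2 in 4 and 0. The positive cells with CDH1 had a median of 6216 genes, against 3330.5 in those without.

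**Figure D5:**
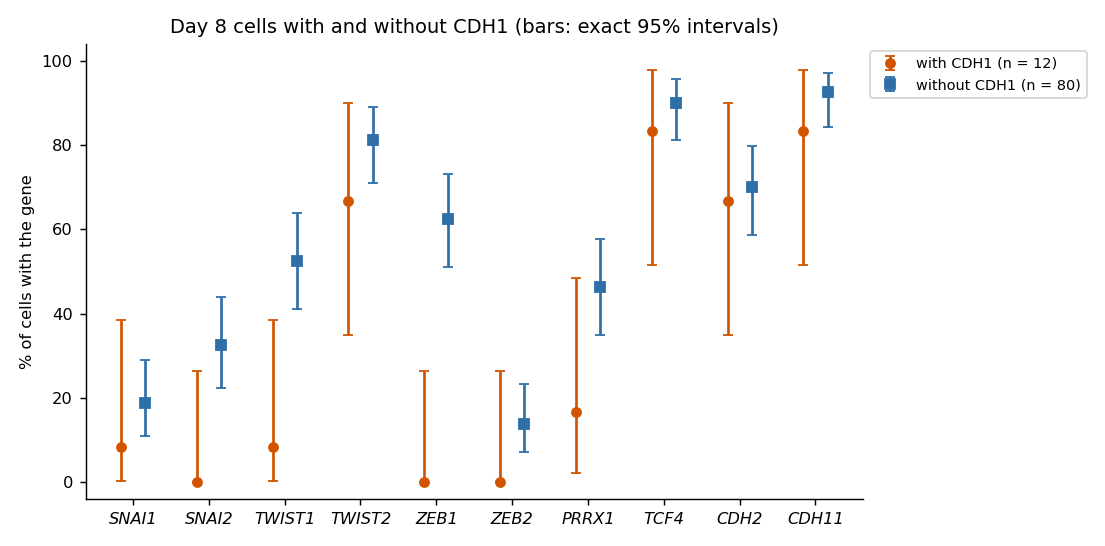
Share of day 8 cells (%) in which each of the 10 genes was detected, for the 12 cells with CDH1 (circles) and the 80 without (squares), with exact 95% binomial intervals that cover counting error only. The intervals of ZEB1 and TWIST1 do not overlap, and those of the other 8 genes do.

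Most measured genes known as Snail or ZEB targets were higher at day 8 and in positive cells than in BJ cells. Of the 23 listed, 4 averaged 1 or more in BJ cells, 14 at day 8, 18 in positive cells and 8 in negative cells. Against BJ cells, most therefore counted as measured only through the other group, which favours calls of higher. Of 15 measured at day 8 against BJ cells, 10 were higher, where 15.2% of all genes were called higher. A further 2 were lower (PKP3 and MUC1), where 15% were called lower. The 15 had a median difference of mean log2 values of 0.19, close to the 0.17 of all measured genes. CLDN4, a claudin, averaged 20.1 rescaled FPKM at day 8 and 0.0187 in BJ cells, and EPCAM, an epithelial adhesion molecule, 8.41 and 0.104. Of 19 measured in positive against BJ cells, 15 were higher, where 34.4% of all genes were called higher. PKP3 was the 1 lower, where 13.6% were called lower. ESRP1, an epithelial splicing regulator, averaged 101 rescaled FPKM in positive cells and 0.00116 in BJ cells. In negative against day 8 cells, 7 of 14 were lower and 0 higher, where 10.6% of all genes were called lower and 28.4% higher. EPCAM averaged 0.843 rescaled FPKM in negative cells and 8.41 at day 8, and RAB25, an epithelial trafficking GTPase, was listed at 0 in negative cells and averaged 4.85 at day 8. Against BJ cells, negative cells had 5 of 10 higher (CLDN4, CLDN7, OCLN, GRHL1 and LLGL2), where 31.4% of all genes were called higher, and 2 lower (MUC1 and RAB25), where 13% were called lower, in the comparison where ZEB1, TCF4 and CDH11 were higher too. CLDN4 did not follow the rest of the list between the fractions, at 0.579 rescaled FPKM in positive cells and 10.6 in negative cells.

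Most structural genes of mesenchyme were lower at day 8 than in BJ cells and higher in negative than in day 8 cells. Their summed level, in which the highest genes weigh most, hardly moved in those groups. Its median was 18532 rescaled FPKM in BJ cells, 16576 at day 8 and 16438 in negative cells, against 1420 in positive cells. Day 8 cells had 12 of 15 lower than BJ cells, where 15% of all genes were called lower. S100A4, a calcium-binding protein, was the 1 higher, where 15.2% were called higher. The median log2 ratio of the 15 genes was -1.72, against 0.04 for all genes. ACTA2, smooth muscle actin, averaged 18 rescaled FPKM at day 8 and 464 in BJ cells, and FN1, fibronectin, 50.1 and 1181. Negative cells had 12 of 15 higher than day 8 cells, where 28.4% of all genes were called higher. S100A4 was lower, where 10.6% were called lower. COL1A1, a chain of type I collagen, averaged 1162 rescaled FPKM in negative cells and 45.6 at day 8. Positive cells had 14 of 15 lower than negative cells and 0 higher, where 21.4% of all genes were called lower and 24.8% higher. VIM, vimentin, averaged 1428 rescaled FPKM in positive cells and 3223 in negative cells, against 7607 in BJ cells, and was at least 2-fold lower than in BJ cells in both fractions.

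Genes of the TGF-beta pathway, which induces Snail and ZEB genes, were partly higher in negative than in day 8 cells. Of 13 measured, 8 were called higher and 0 lower, where 28.4% of all genes were called higher and 10.6% lower. The 8 include the inhibitors SMAD7 and SKIL. INHBA, which encodes an activin subunit, averaged 38.4 rescaled FPKM in negative cells and 6.97 at day 8, and SMAD7, a feedback inhibitor, 37.2 and 7.09. In positive against negative cells 5 of 14 were lower, where 21.4% of all genes were called lower. The inhibitor SKIL was the 1 higher, where 24.8% were called higher. TGFBR2, a receptor, averaged 2.47 rescaled FPKM in positive cells and 40.03 in negative cells.

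Among partners and relatives of the factors, the ID genes, whose products sequester E proteins such as TCF4, were lower at day 8. ID2 averaged 40.2 rescaled FPKM at day 8 and 276 in BJ cells, ID3 87.2 and 464, and ID1 259 and 973. Of 15 measured there, 5 were lower, where 15% of all genes were called lower. The homeobox gene MEOX2 was the 1 higher, where 15.2% were called higher. In negative against day 8 cells 7 of 15 were higher and 0 lower, where 28.4% of all genes were called higher and 10.6% lower. MEOX1 averaged 10.0 rescaled FPKM in negative cells and 0.0380 at day 8, and TCF12, another E protein, 59.6 and 20.4. PRRX2, the relative of PRRX1, averaged 5.02 rescaled FPKM in positive cells and 40.6 in negative cells. SNAI3, the third Snail gene, averaged 13.7 rescaled FPKM in positive cells and 0.185 in negative cells, the reverse of SNAI2. HMGA2, a chromatin protein of embryonic cells, averaged 80.1 rescaled FPKM in positive cells and 16.1 in negative cells.

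Of the other cadherins and catenins, some differed between the day 16 fractions, at shares not far from those of all genes. CDH3, P-cadherin, averaged 30.9 rescaled FPKM in positive cells and 0.0263 in negative cells. CDH13, a cadherin with a lipid anchor, averaged 1.42 rescaled FPKM in positive cells and 45.9 in negative cells, the direction of CDH11. CTNNB1, beta-catenin, averaged 108 rescaled FPKM in negative cells and 30.3 at day 8. JUP, plakoglobin, averaged 28.1 rescaled FPKM at day 2 and 0.452 in BJ cells. Across all 18 cadherins and catenins listed, 3 of the 9 measured were higher in positive than in negative cells, where 24.8% of all genes were called higher, and 1 lower, where 21.4% were called lower.

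Likeness between genes was measured by the Pearson correlation of log2 levels over all 460 cells, among 9275 genes detected in at least 20% of cells. CDH11 was most like COL3A1 (0.73), MMP2 (0.67) and GSN (0.66), and with group means removed these were 0.32, 0.32 and 0.25. ZEB1 was most like COL6A3 (0.61), COL3A1 (0.58) and FBN1 (0.57), and SNAI2 most like COL6A3 (0.58), THBS1 (0.57) and COL1A1 (0.57). TWIST2 was nearest to TSPO (0.56), S100A6 (0.55) and CD44 (0.54), and TCF4 to ASPN (0.56), CDKN2B (0.53) and MFAP4 (0.50). Among the genes nearest to PRRX1 were FRMD6 (0.47) and THBS1 (0.46), and TWIST1 was nearest to PTRF (0.33), AXL (0.33) and CRIM1 (0.31). CDH2 was nearest to TAGLN (0.45), BCS1L (0.44) and TPM1 (0.43), with 0.36, 0.21 and 0.42 once group means were removed. With group means removed, the 3 values were 0.21, 0.26 and 0.14 for SNAI2, 0.30, 0.19 and 0.25 for ZEB1, 0.20, 0.14 and 0.26 for TWIST2, 0.09, 0.08 and 0.10 for TCF4 and 0.16, 0.17 and 0.12 for TWIST1. The PRRX1 values were then 0.30 and 0.24. SNAI1 and ZEB2 were in under 20% of cells and were not ranked. Cells of a group share a table, and depth varies among them, so these values describe the pattern and carry no test.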

How the data were processed

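Per the labels' protocols, single cells were captured on microfluidic chips, and libraries were made from polyadenylated RNA. The authors deposited 1 table of FPKM values per group (5 tables, 96 cells each). STAR, Cuffnorm and the build hg19 are named per the submitters' processing notes, and versions, annotation and how tables were normalised are not given in the sources used here. No shared read step was found in the deposited FPKM, so counts were not recovered and no count test was run. A cell was kept with at least 2000 genes at 1 or more and ACTB or GAPDH detected, and rescaled to 1000000. A gene counted as measured where at least 1 of the compared means reached 1. It was called where the log2 ratio of means reached 1 or -1 and the difference of mean log2(value + 1) had the same sign. The 10 genes and all lists were chosen with earlier results of these data known. Intervals are exact (Clopper-Pearson, 95%), the limit beside a count of 0 is 3 counts of the cells, and both cover counting error only. The calling step was tested on simulated data. No 2 cells had identical values, and no doublet caller was run. Genes were named as all 10, up to 4 called per list and comparison by size, and the 3 nearest by correlation. One gene that this rule would name is not reported here. Others beside them (CLDN7, CRB3, RAB25, VIM, CTNNB1, SKIL, NANOG, RPL21 and TUBB) and the split of cells by CDH1 were picked with values seen. Python 3.11.15, numpy 2.4.6, pandas 2.3.3, scipy 1.17.1 and matplotlib 3.10.9 were used.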

Additional observations from a re-analysis of the deposited data

How the results depend on the processing

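No paired analysis was possible because the numbers in the titles only number cells, and no test was run. The alternatives were FPKM as deposited, scaling on housekeeping genes, leaving out small RNA and mitochondrial genes, a pseudocount of 0.1, no minimum mean (alone or with that pseudocount), all cells, cells with at least 4000 genes, leaving out the 5% of cells with most genes, the difference of mean log2 values, and leaving out the highest cell of each group. Of the alternative ratios of single genes, 831 kept their call or lack of one, 48 gained or lost a call, and 1 reversed (TCF4, negative against BJ cells, -0.31 on FPKM as deposited, against 1.62). An uncalled ratio could still move far: at day 2 against BJ cells PRRX1 was at 4.59 on FPKM as deposited, against 0.18. Genes lower at day 2 than in BJ cells numbered 2 by the difference of mean log2 and 2 without the highest cells, against 4. Genes higher in positive than in negative cells numbered 0 by the difference of mean log2, against 1 (CDH2). Genes lower at day 8 than at day 2 numbered 1 over all cells, against 2. Leaving out PRRX1, an alternative added after the data were seen, gives 1 by construction, since PRRX1 is 1 of the 2. Cells with CDH1 and CDH2 were 0% of BJ cells with at least 4000 genes and 0% at a detection limit of 5. They were 6.25% of day 2 cells when any value above 0 counted, 3.26% of day 8 cells and 49.5% of positive cells at a limit of 5, and 79.4% of positive cells with at least 4000 genes. Of the 10 genes, a limit of 5 left means per cell of 6.21 (BJ), 4.89 (day 2), 4.25 (day 8), 2.09 (positive) and 6.35 (negative). Any value above 0 gave 7.71, 6.81, 5.92 and 3.45 in BJ, day 2, day 8 and positive cells. Day 2 cells with at least 4000 genes held 6.44, and all 96 negative cells 6.10. On FPKM as deposited the share of calls that were higher was 65.5% at day 2 against BJ cells (50.2% here), 58.3% for negative against BJ cells (70.7%), 59% for negative against day 8 cells (72.8%) and 37.4% for day 8 against day 2 cells (51%). Scaling on housekeeping genes gave an all-gene median of 0.81 for positive against BJ cells (0.55 here), 0.33 for positive against negative cells (0.06) and 0.73 for positive against day 8 cells (0.49). The cause of these shifts was not tested. Depth is unknown, each group is 1 sample, and sparse genes (SNAI1, ZEB2) rest on few cells.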
